A study of Mus musculus with 9 samples.

Results

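Brains of 5xFAD mice that also carried a Cd5l transgene were compared with brains of 5xFAD mice without it. The comparison used 6 of the 9 RNA libraries of the series, chosen by the genotype in the labels: 3 from 5xFAD/Cd5l tg/wt mice, also called carriers here, and 3 from 5xFAD mice. Each library is titled as a separate mouse, all mice were 7 months old, and the tissue was brain from which the cerebellum had been taken. Both genotypes carry the 5xFAD transgenes, which are driven by the neuronal Thy1 promoter and make this strain a model of amyloid deposition. The added transgene encodes mouse CD5L under the human PDGF-B promoter, which is widely used to drive expression in neurons, so that the added Cd5l was not placed under its own macrophage promoter. Information on founder lines, sex and batch is not given in the sources used here, and mice with the Cd5l transgene but without the 5xFAD transgenes were not analysed here. The 3 libraries of wild-type mice are given as reference values beside many of the genes.

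CD5L is a secreted protein of the scavenger receptor cysteine-rich family that tissue macrophages make under liver X receptor control. It circulates bound to IgM, enters cells through CD36, lowers fatty acid synthase activity, and in liver and kidney coats debris that phagocytes then clear. In the amyloid-bearing brain, microglia gather at plaques and switch on a set of lysosomal, lipid and phagocytic genes. The title of the study concerns the clearance of amyloid by phagocytes, and the comparison asks what else in the brain transcriptome differs when Cd5l is supplied.

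The 9 libraries held 14575416 to 17865150 counts, and 17575 of 56748 genes passed the filter on low counts. Values are CPM, that is counts scaled to one common library size after TMM normalization. Log2 fold changes are 5xFAD/Cd5l tg/wt minus 5xFAD, ± SE, from edgeR's quasi-likelihood fit with n = 3 libraries per genotype. A gene is said to pass, to be called, or to rise or fall, where its Benjamini-Hochberg adjusted p over all tested genes was under 0.05. Libraries 2 and 3 of 5xFAD/Cd5l tg/wt and library 3 of wild-type stood apart in genes that mark brain regions, and values without these 3 libraries are given beside several results. With those libraries left out, the Cd5l group is 1 library, carrier library 1, whose spread is assumed to be that of the others. That library was itself the lowest in striatal genes, with a summed 1724 CPM against 1988 to 3046 CPM in the other libraries. Leaving out the 3 libraries therefore does not remove regional differences.

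Cd5l itself checked the labels. Its counts were 2553, 2822 and 3551 in 5xFAD/Cd5l tg/wt, 0 in each 5xFAD library, and 0, 1 and 0 in wild-type. The groups were fully apart. At 187 ± 15.5 CPM (SD, n = 3), Cd5l (chromosome 3, 87265188 to 87278380, GRCm39) ranked 1088 of the tested genes in the carriers, and it was at least 2982-fold higher than in 5xFAD, where 3 counts over all libraries of that genotype (0.0627 CPM) were taken as the upper limit. The counts do not separate transgene from endogenous transcripts.

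In all, 1095 genes passed (6.23% of those tested), of which 939 rose (5.34%) and 156 fell (0.888%). Every list count below is to be read beside these shares. The lists were drawn up with earlier results of these data known, so their counts are not independent support. Among the rising genes 296 changed more than 2-fold and 341 less than 1.5-fold, while 18 of the falling genes changed more than 2-fold and 101 less than 1.5-fold. The median log2 fold change of all tested genes was 0.01. For 28.7% of tested genes the ranges of the 2 genotypes were apart. The count of passing genes depended on single libraries: it was 343 without 5xFAD library 1, 278 without 5xFAD library 2, 493 and 450 without 5xFAD/Cd5l tg/wt libraries 2 and 3, and 2069 without 5xFAD/Cd5l tg/wt library 1. Of 98 passing genes chosen by rule for description, 40 passed in all 22 alternative analyses. Against wild-type, 277 genes (1.58%) passed for 5xFAD/Cd5l tg/wt (1.38% higher and 0.199% lower) and 615 (3.5%) for 5xFAD (1.06% higher and 2.44% lower). These 2 comparisons share libraries with the main one and with each other.

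**Figure D1:**
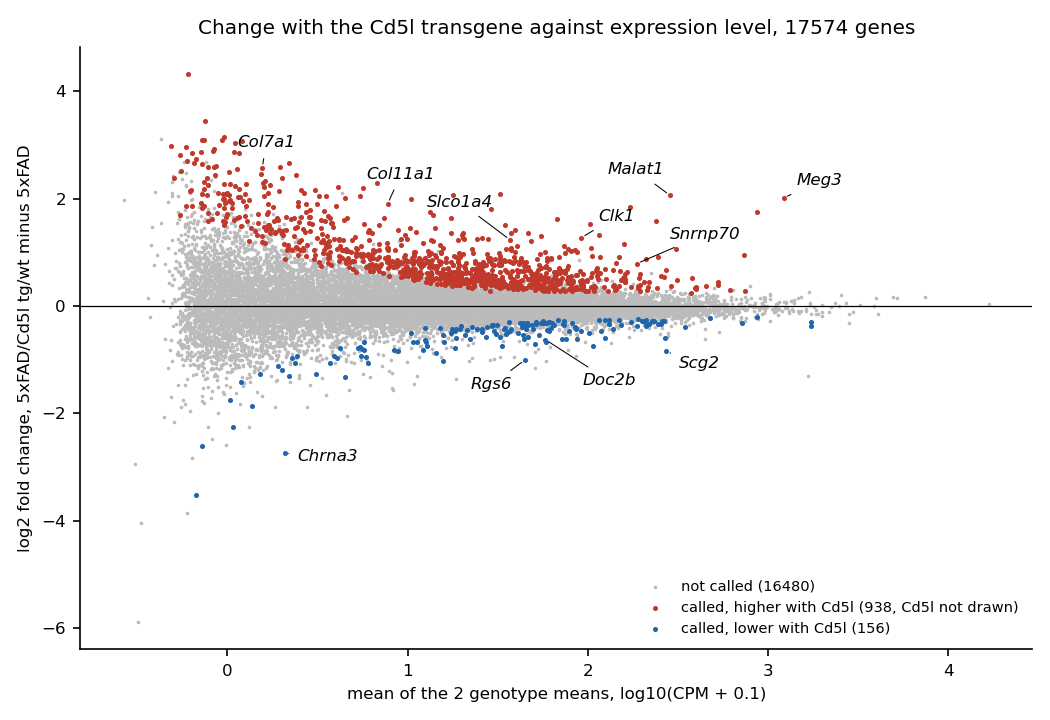
Log2 fold change between 5xFAD/Cd5l tg/wt and 5xFAD libraries against the mean expression of the 2 genotypes (log10 of CPM + 0.1), 1 point per tested gene. Red points are genes that rose, blue points genes that fell and grey points all others. Cd5l lies outside the drawn range. Rising genes outnumber falling ones (939 against 156 with Cd5l counted), with Meg3 and Malat1 at the top right and Rgs6, Scg2 and Chrna3 among those that fell.

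Genes through which CD5L is known to act gave no call beside Cd5l itself, although this depended on carrier library 1. Of 15 tested genes of the CD5L list (its receptor Cd36, the IgM heavy chain Ighm, liver X and retinoid X receptors, and enzymes of fatty acid synthesis) only Cd5l passed, and 5 had an unadjusted p under 0.05 in edgeR's test. Without carrier library 1, 3 of them fell. Fasn, the fatty acid synthase gene, differed by 0.11 (adjusted p = 0.55), and Cd36 by -0.51 (0.48). Rxra, the retinoid X receptor that pairs with liver X receptors, was at 49.3, 48.9 and 46.1 CPM in 5xFAD and 44.6, 37.1 and 34.9 CPM in 5xFAD/Cd5l tg/wt, a difference of -0.31 ± 0.10 (adjusted p = 0.0768). It passed without carrier library 1 (0.00726), with DESeq2 (0.0439), with GC offsets (0.0473), with gene-length offsets (0.049) and without a filter (0.0307). Scd1, which makes monounsaturated fatty acids, differed by -0.21 (0.2), and passed without carrier library 1 (0.0495). Values for Ighm spanned 28.6 to 36.9 CPM in 5xFAD and 34.9 to 46.3 CPM in the carriers (difference 0.36 ± 0.15, adjusted p = 0.182).

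Genes of amyloid production and removal did not pass either, with 0 of 27 tested and a median of 0.01. By edgeR's unadjusted p, 2 of the 27 were under 0.05, and the count of rising members reached 2 without the 3 regionally distinct libraries. App counts, which map to the mouse gene of the reference, were 1972, 1963 and 1945 CPM in 5xFAD and 2050, 2031 and 1909 CPM in 5xFAD/Cd5l tg/wt. Thy1, whose promoter sequence drives the amyloid transgenes, was at 1599, 1444 and 1548 CPM in 5xFAD and 1857, 1663 and 1981 CPM with Cd5l, against 590.4 to 662.0 CPM in wild-type. The 2 amyloid genotypes did not overlap at Thy1, and the difference of 0.26 ± 0.08 did not pass (adjusted p = 0.0604). It passed without the 3 regionally distinct libraries (0.0281), and in 5 other alternatives (0.011 to 0.0443).

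Microglial genes of the plaque response mostly did not pass, and the share that rose was near that of all tested genes. Of 30 genes of disease-associated microglia 2 rose, 0 fell and 25 had a positive log2 fold change (median 0.14), where 5.34% of all tested genes rose. The rising count was 1 without 5xFAD library 1, 5xFAD library 2 or carrier library 3, and 4 without the 3 regionally distinct libraries. Lilrb4a, an inhibitory receptor of myeloid cells (chromosome 10, 51367052 to 51372707), had 0.993, 0.617 and 1.34 CPM in 5xFAD and 2.93, 3.84 and 4.46 CPM in 5xFAD/Cd5l tg/wt. All 3 carriers were above all 6 other libraries, of which the wild-type ones held 0.138 to 0.291 CPM. Lilrb4a met the filter on low counts only with the carriers counted. The filter thus favoured its rise, and its place among the rising genes is no support for one. The log2 fold change was 1.94 ± 0.33 (adjusted p = 0.00542), and the call was lost without the 3 regionally distinct libraries (0.0923). Lilrb4a has close paralogs, and how reads matching several of them were counted is not given in the sources used here.

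Cd33, a sialic acid receptor that restrains microglial uptake, rose by 0.58 ± 0.13, from 8.98 to 12.1 CPM in 5xFAD to 15.2 to 16.9 CPM with Cd5l (adjusted p = 0.0238). That call was lost without 5xFAD library 1 (0.0964) or 2 (0.13), without carrier library 2 (0.0899) or 3 (0.0635), and without the 3 regionally distinct libraries (0.142). Clec7a, a phagocytic receptor of plaque microglia, stood at 12.7, 10.6 and 13.5 CPM in 5xFAD and 24.0, 14.8 and 21.3 CPM in 5xFAD/Cd5l tg/wt, without overlap, and its difference of 0.71 ± 0.21 did not pass (adjusted p = 0.065). It passed without the 3 regionally distinct libraries (0.0268) or carrier library 2 (0.0386), with DESeq2 (0.0137), and in 4 other alternatives. Spp1, the secreted osteopontin, went the other way at -1.003 ± 0.28 and did not pass (0.0567). It passed in 8 alternatives, among them those without carrier library 1 (0.0097), wild-type library 3 (0.0206) or the 3 regionally distinct libraries (0.0448) and with limma-voom (0.0408). The summed level of the 30 genes ran from 3881 to 4258 CPM in 5xFAD and from 3620 to 4690 CPM with Cd5l, and those ranges overlap.

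None of the 27 tested phagocytosis and scavenger receptor genes passed, although 4 had an unadjusted p under 0.05 in edgeR's test. Itgb2, the common chain of leukocyte integrins that bind complement-coated targets, was at 16.02, 14.5 and 17.6 CPM in 5xFAD and 22.8, 19.3 and 21.3 CPM with Cd5l, against 5.41 to 6.16 CPM in wild-type. The 2 amyloid genotypes were apart, but the difference of 0.40 ± 0.12 did not pass (adjusted p = 0.0657). Among the 22 alternatives Itgb2 passed only with limma-voom (0.0474). In the complement list 1 of 18 rose, a share near that of all tested genes. C4b, which tags targets for uptake, had 102.3, 92.7 and 112.4 CPM in 5xFAD and 261.4, 151.5 and 168.9 CPM in 5xFAD/Cd5l tg/wt, a rise of 0.92 ± 0.19 (adjusted p = 0.0161), and wild-type libraries held 39.9 to 61.9 CPM. It did not pass without 5xFAD library 1 (0.0814) or 2 (0.101). C4b has the near-identical neighbour C4a, so that its counts may be shared.

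Tcirg1, a subunit of the proton pump that acidifies lysosomes, was the 1 of 28 lysosome and autophagy genes that rose. Its 21.2, 18.5 and 21.9 CPM in 5xFAD/Cd5l tg/wt exceeded all 6 other libraries (12.7 to 14.3 CPM), with a log2 fold change of 0.60 ± 0.11 (adjusted p = 0.0073) that was at 0.0514 without 5xFAD library 2. The cytokine gene Il1a rose by 1.41 ± 0.29 from 0.729 to 1.00 CPM to 2.16 to 2.31 CPM (adjusted p = 0.014), as the 1 of 15 cytokine and inflammasome genes, again near the share over all genes. The call was lost without 5xFAD library 1 (0.0814) or 2 (0.0965), carrier library 3 (0.0569) or the 3 regionally distinct libraries (0.116). Of 17 antigen presentation genes 0 passed, with 7 under an unadjusted 0.05 in edgeR's test and a median of 0.27.

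Interferon-stimulated genes leaned upward, where 5.34% of all tested genes rose: 27 of 29 were positive with a median of 0.55, and 3 rose. They were Stat2, the signal transducer of type I interferon (0.57 ± 0.11, adjusted p = 0.00918), Xaf1 (0.77 ± 0.18, 0.0283) and the antiviral enzyme gene Rsad2 (1.05 ± 0.28, 0.0458). Stat2 stood at 21.4, 19.7 and 23.3 CPM in 5xFAD, 28.9, 34.7 and 31.9 CPM in 5xFAD/Cd5l tg/wt and 23.9 to 29.3 CPM in wild-type. The count was 0 when 5xFAD library 1, 5xFAD library 2 or the 3 regionally distinct libraries were left out, and 1 without library 3 of the carriers. Rsad2 was the least stable of them, with adjusted p up to 0.252. In bulk tissue, fewer cells of a type and less RNA per cell cannot be told apart, here and for every cell type list. Defining genes of border-associated macrophages, another myeloid type that could add such transcripts, summed to 9.20 to 9.71 CPM in 5xFAD and 5.26 to 11.7 CPM in 5xFAD/Cd5l tg/wt, with 0 of 6 passing, and their part in these results was not tested.

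Of 18 reactive astrocyte genes 1 rose, also near the 5.34% of all genes. It was the cytokine receptor gene Osmr (0.90 ± 0.22, adjusted p = 0.0302). In the astrocyte identity list 2 of 16 fell, and 0 without 5xFAD library 1 or 2, carrier library 2 or 3, or the 3 regionally distinct libraries. Osmr did not pass without 5xFAD library 1 (0.104) or 2 (0.155), without carrier library 1 (0.0515) or 3 (0.0637), or with gene-length offsets (0.0559). Gfap, the filament protein of reactive astrocytes, was at 697.6, 650.4 and 713.7 CPM in 5xFAD and 1064, 762.6 and 856.7 CPM with Cd5l, apart from each other but not past the threshold (0.38 ± 0.12, adjusted p = 0.0856). It passed without the 3 regionally distinct libraries (0.00681), with the replicate block (0.0331), with DESeq2 (0.0405) and without a filter (6.52e-05). Glul, the glutamine synthetase of astrocytes, fell by 0.37 on the log2 scale (adjusted p = 0.0342) from 1788 to 2051 CPM to 1300 to 1720 CPM. Its call was lost without 5xFAD library 1 (0.148) or 2 (0.164), without carrier library 2 (0.109) or 3 (0.101), and without the 3 regionally distinct libraries (0.135).

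**Figure D2:**
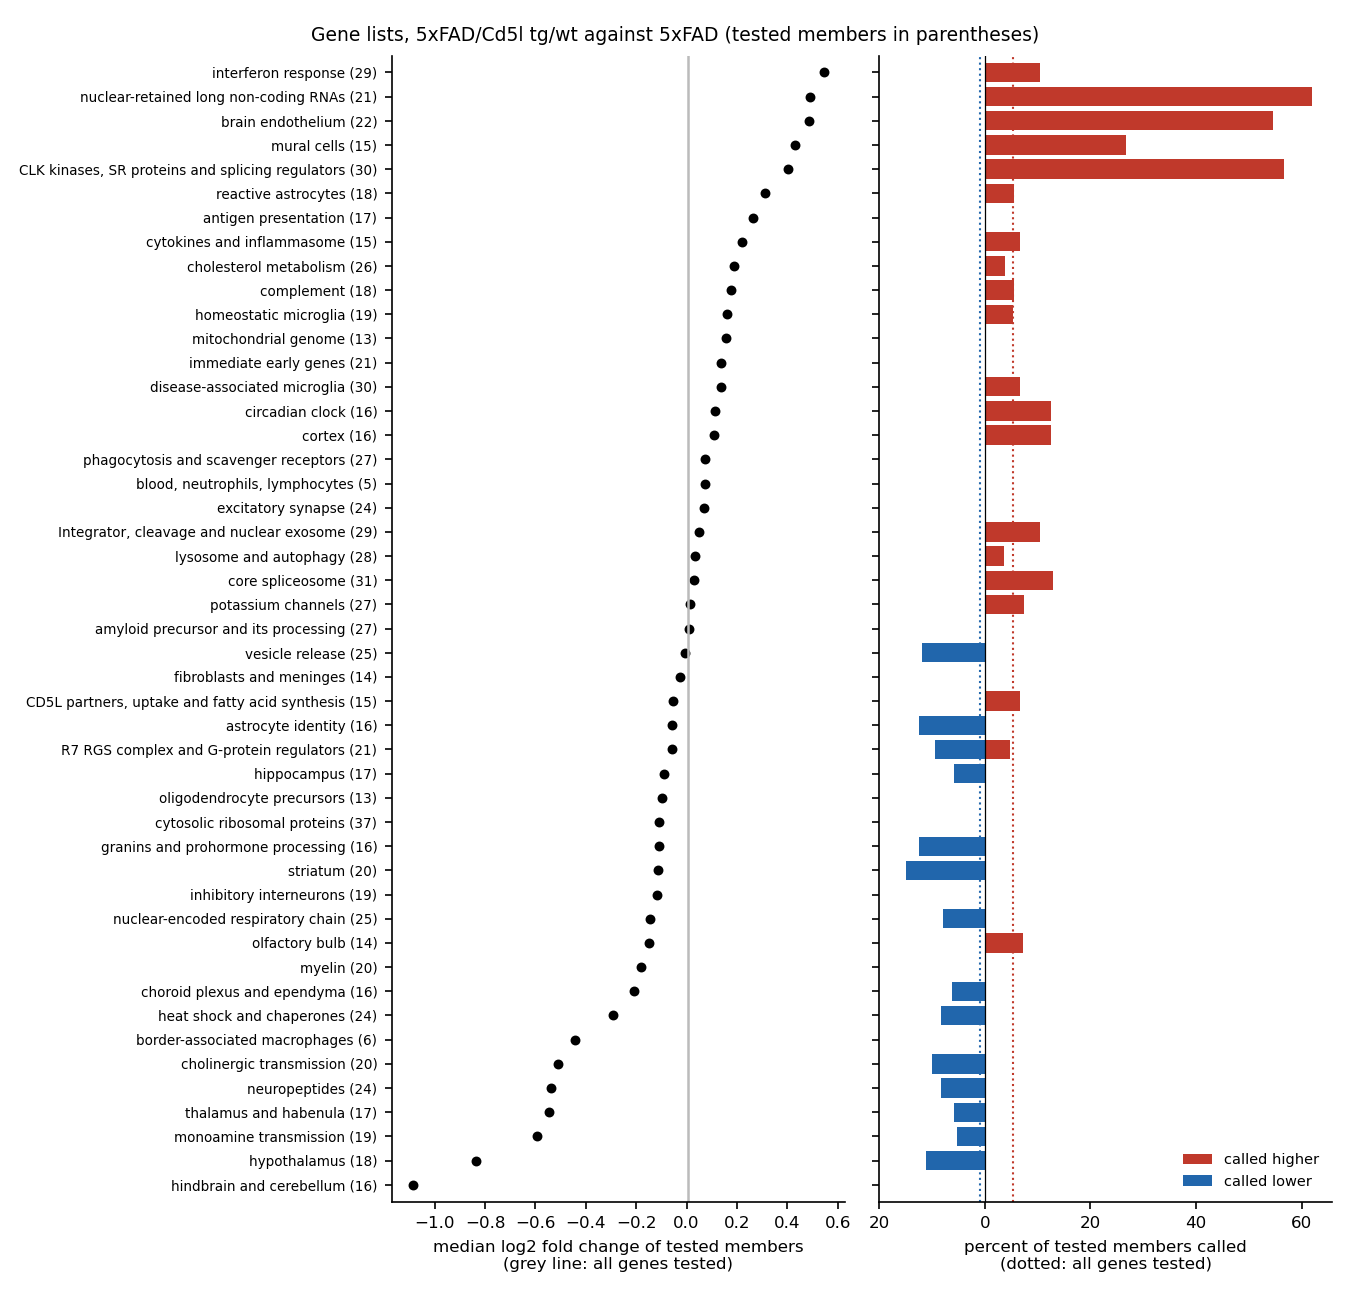
Gene lists ordered by the median log2 fold change of their tested members (left, points, with a grey line for all genes tested) and the percent of tested members that rose (red) or fell (blue) on the right. Dotted lines mark the percent of all tested genes that rose (5.34%) and fell (0.888%). Nuclear-retained RNAs, splicing regulators and endothelium have the most rising members (13 of 21, 17 of 30 and 12 of 22), while lists of hypothalamus and hindbrain have the lowest medians (-0.84 and -1.09).

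The gene with the smallest p among those that fell was Rgs6. RGS6 is a member of the R7 family of proteins that speed up the shut-off of inhibitory G proteins, and it works in a complex with the G-beta protein GNB5. Rgs6 (chromosome 12, 82635066 to 83208830) was at 60.9, 56.9 and 61.3 CPM in wild-type, 59.8, 64.2 and 54.9 CPM in 5xFAD, and 29.6, 29.9 and 29.8 CPM in 5xFAD/Cd5l tg/wt. The 3 carriers were nearly alike and below every other library, while the 2 genotypes without Cd5l overlapped. The ratio to 5xFAD was 0.499 (95% interval 0.448 to 0.555) and the log2 fold change -1.004 ± 0.079 (adjusted p = 8.77e-05). Against wild-type the value was equal to 3 decimals, at -1.004 ± 0.079 (adjusted p = 1.37e-05). Across all 22 alternatives, each of which kept the call, the change ran from -1.08 to -0.95.

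No other gene around Rgs6 fell. Of 51 other tested genes that start within 2 Mb of its start, 0 fell and 3 rose (Srsf5, Rbm25 and Bbof1, named because the count is small), with a median of 0.03. Among the 45 of them with a mean of at least 1 CPM, values ran from -0.58 at Dpf3 (adjusted p = 0.395) to 0.88 at Srsf5. Sipa1l1, a postsynaptic gene that lies next to Rgs6 among the genes plotted, had 423.2 CPM in 5xFAD and 403.0 CPM with Cd5l on average and differed by -0.07 ± 0.08. On all of chromosome 12, 5 of 656 tested genes fell (0.762%).

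**Figure D3:**
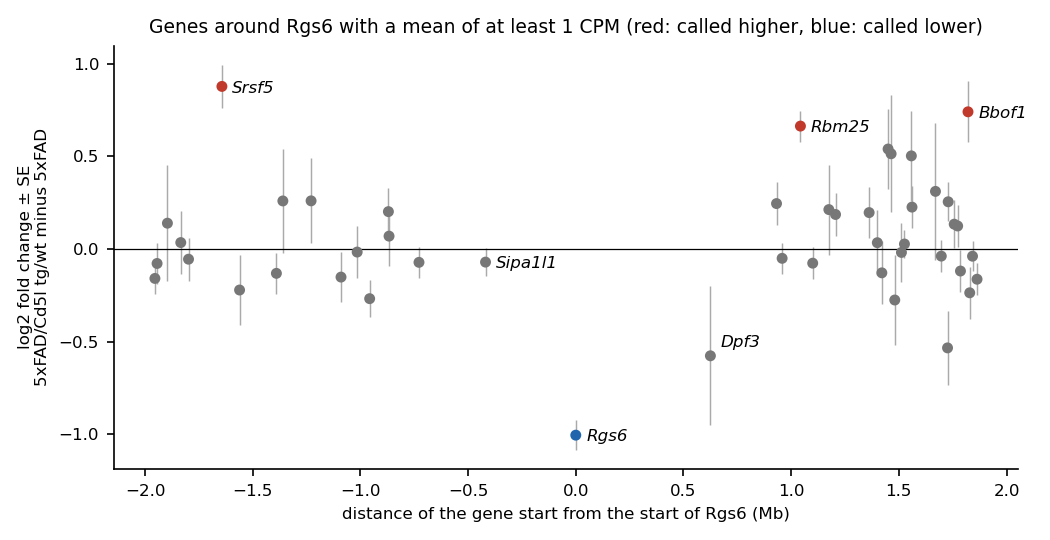
Log2 fold change ± SE between 5xFAD/Cd5l tg/wt and 5xFAD for tested genes with a mean of at least 1 CPM, plotted by the distance of their start from the start of Rgs6 in Mb. The blue point is Rgs6 (-1.004), red points are the 3 genes that rose and grey points did not pass. Dpf3 (-0.58, not passing) has the lowest value among the others.

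Within the list of R7 proteins and other G-protein regulators, 1 of 21 rose, near the 5.34% of all tested genes, and 2 fell, where 0.888% of all tested genes fell. The falling count was 1 without any single 5xFAD library, wild-type library 1 or carrier library 2 or 3, 4 without wild-type library 3 and 5 without the 3 regionally distinct libraries. Rgs11, another R7 member, rose where Rgs6 fell: it stood at 10.8, 11.95 and 13.2 CPM in 5xFAD, 22.7, 30.6 and 32.7 CPM in 5xFAD/Cd5l tg/wt and 17.6 to 25.1 CPM in wild-type, a rise of 1.26 ± 0.16 (adjusted p = 0.000894). The other R7 genes did not pass, with Rgs7 at 0.09 (0.54) and Rgs9 at 0.10 (0.86), nor did the partner Gnb5 at -0.22 (0.15). Rgs16, a regulator from another RGS family that is also in the thalamic list, fell by 0.60 on the log2 scale (adjusted p = 0.0452). It was no longer called without wild-type library 1 (0.0579), without any 1 of the 5xFAD libraries (0.117, 0.121 and 0.124), without carrier libraries 2 (0.149) or 3 (0.095), with gene-length offsets (0.0598) and without the 3 regionally distinct libraries (0.109).

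Several genes of regulated secretion and synaptic release fell. Doc2b, a calcium sensor for vesicle fusion, was at 74.5, 72.5 and 64.0 CPM in 5xFAD and 46.9, 46.8 and 43.2 CPM in 5xFAD/Cd5l tg/wt, below the 50.7 to 58.6 CPM of wild-type, and fell by 0.62 on the log2 scale (SE 0.09, adjusted p = 0.00144). Scg2, a granin packed into dense-core vesicles (chromosome 1, 79412386 to 79417837), had 345.0, 384.8 and 318.5 CPM in 5xFAD and 245.2, 169.7 and 168.6 CPM with Cd5l. All carriers were below the 6 other libraries (wild-type 292.8 to 341.3 CPM), and the fall was 0.85 on the log2 scale (SE 0.13, adjusted p = 0.00291). It was smaller in 5xFAD/Cd5l tg/wt library 1 than in libraries 2 and 3, and without the 3 regionally distinct libraries the value was -0.53 and still passed. Vgf, a neurosecretory precursor, fell by 0.60 (adjusted p = 0.0132) from 259.7 to 364.9 CPM to 201.9 to 221.0 CPM. The call was lost without 5xFAD library 1 (0.077) or 2 (0.0883) or carrier library 3 (0.0523).

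Over all tested genes 0.888% fell. Counted by list, 3 of 25 vesicle release genes fell (Doc2b, Sv2c and Unc13c) and 2 of 16 granin and prohormone genes (Scg2 and Vgf). Each list had 1 falling gene without 5xFAD library 1, without 5xFAD library 2 or without carrier library 3, and the release list also without library 2 of that genotype. Without 5xFAD/Cd5l tg/wt library 1, 4 granin and prohormone genes fell. Marcksl1, a membrane and actin regulator of growing neurites, fell from 59.8, 63.9 and 66.0 CPM to 43.5, 45.0 and 41.4 CPM (-0.55 ± 0.08, adjusted p = 0.00189), and wild-type libraries held 45.9 to 52.2 CPM. Sema5a, an axon guidance gene, fell from 67.4, 67.6 and 70.3 CPM to 53.8, 47.9 and 48.2 CPM (-0.45 ± 0.07, 0.00443). Hnrnpc, which binds nascent transcripts, fell from 215.0, 213.6 and 205.1 CPM to 155.2, 162.6 and 170.9 CPM (-0.37 ± 0.07, 0.00767). For these 3 genes the 2 genotypes did not overlap. That was a condition of the rule that named them, so it is no further support. Over all tested genes 12.1% were apart in this direction. Each of the 3 calls held in all 22 alternatives.

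Chrna3, the nicotinic acetylcholine receptor subunit of the habenula and autonomic ganglia (chromosome 9, 54917395 to 54933846), had the largest fall among the 40 genes chosen by rule that passed in every alternative. It was at 2.09, 1.95 and 2.49 CPM in wild-type, 3.04, 3.20 and 4.08 CPM in 5xFAD, and 0.999, 0.270 and 0.282 CPM in 5xFAD/Cd5l tg/wt, a log2 fold change of -2.74 ± 0.41 (adjusted p = 0.00222). The carriers were below all other libraries. Libraries 2 and 3 of the carriers were lower than library 1, the change was -3.60 without library 1, and it was -1.79 without the 3 regionally distinct libraries. In the cholinergic list 2 of 20 fell, where 0.888% of all tested genes fell. Slc5a7, the choline transporter of cholinergic terminals, went from 12.2, 13.1 and 13.6 CPM to 6.92, 8.97 and 8.63 CPM (-0.66 ± 0.14, adjusted p = 0.0197), where wild-type libraries held 17.5 to 23.1 CPM. The call was lost on leaving out any 1 of the 5xFAD libraries (0.059, 0.0869 and 0.0535) or without carrier library 3 (0.052). The list had 8 falling genes without 5xFAD/Cd5l tg/wt library 1.

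Marker genes of brain regions also differed between these libraries. Of 18 tested hypothalamic genes 18 were negative (median -0.84) and 2 fell, and their summed level was 231.9 to 270.4 CPM in 5xFAD against 276.6, 93.5 and 105.1 CPM in 5xFAD/Cd5l tg/wt libraries 1, 2 and 3. The falling count was 15 without carrier library 1, 1 without wild-type library 1 or 2, and 0 without any single 5xFAD library or carrier library 2 or 3. None of the listed hypothalamic genes was at 0 in all libraries. The 17 genes of thalamus and habenula, where Chrna3 is known to be strong, summed to 780.3 to 842.8 CPM in 5xFAD and 729.7, 515.1 and 631.8 CPM with Cd5l (median -0.54, 1 fell, and 6 without carrier library 1). The 16 hindbrain and cerebellum genes had a median of -1.09 and 0 passed (3 under an unadjusted 0.05 in edgeR's test), with summed levels of 349.1 to 399.1 CPM in 5xFAD, 270.9 to 340.6 CPM with Cd5l and 1618 CPM in wild-type library 3. Striatal genes were lowest in carrier library 1, with 1724 CPM there against 2434 to 2713 CPM in 5xFAD and 2961 and 2409 CPM in libraries 2 and 3. Of 20 striatal genes 3 fell, 13 fell without the 3 regionally distinct libraries, and 1 fell without any single 5xFAD library or carrier library 2 or 3. Cortical genes leaned higher, with 10 of 16 positive and a median of 0.11. They summed to 1511 to 1537 CPM in 5xFAD and 1623, 1895 and 1815 CPM in carriers 1, 2 and 3. Of the 16, 2 rose, where 5.34% of all tested genes rose, and 0 rose with gene-length offsets. The part of these regional differences in the falls of Scg2, Chrna3, Slc5a7 and the peptide genes was not tested.

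Neuropeptide genes leaned low with 23 of 24 negative (median -0.54), and 2 fell. Tac1, the substance P precursor, fell from 55.5, 50.7 and 48.2 CPM to 33.4, 36.4 and 36.8 CPM (-0.53 ± 0.14, adjusted p = 0.0474), and Crh, the stress hormone releasing factor, from 7.15, 9.04 and 6.63 CPM to 2.26, 4.86 and 4.68 CPM (-0.95 ± 0.26, 0.0475). Nts, the neurotensin precursor, shows the uneven carriers: 10.2, 13.1 and 10.8 CPM in 5xFAD, and 9.12, 3.44 and 2.03 CPM in 5xFAD/Cd5l tg/wt (-1.24 ± 0.39, adjusted p = 0.0814, and 0.000307 without carrier library 1). Tac1 and Crh lost their calls whichever 5xFAD library was left out (adjusted p 0.0751 to 0.19 for Tac1 and 0.0654 to 0.213 for Crh). Crh also counts in the hypothalamic list and Tac1 in the striatal one. The list count was 0 without wild-type library 1, without any 1 of the 5xFAD libraries and without carrier library 2 or 3, 1 without library 2 of wild-type and 4 without library 3 of wild-type. It was 14 without 5xFAD/Cd5l tg/wt library 1.

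**Figure D4:**
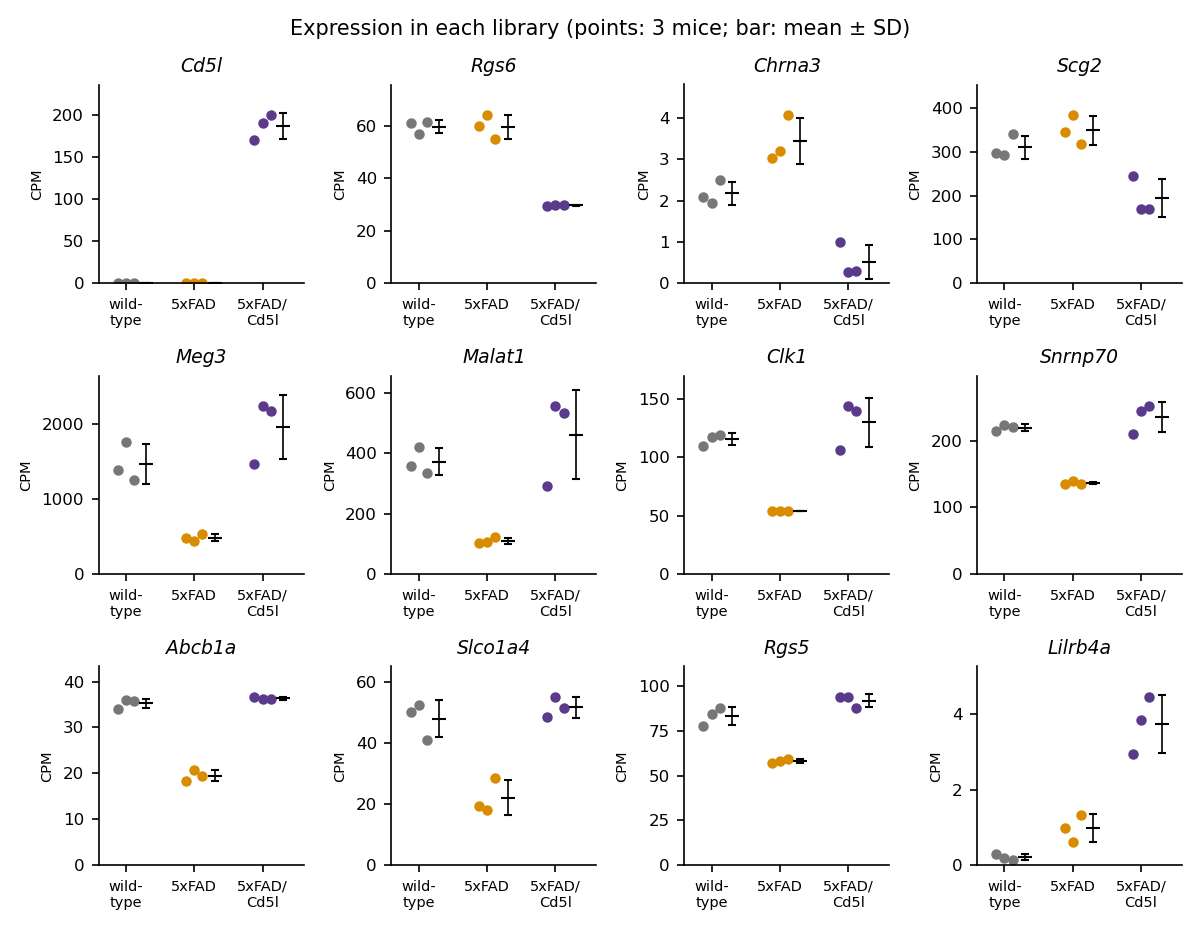
CPM in each library for 12 genes, with the 3 libraries of a genotype as points in the order 1, 2, 3 and the mean ± SD (n = 3) as a bar beside them. Rgs6 is near 30 CPM in all 3 carriers and near 60 in the other 6 libraries. Meg3, Malat1, Clk1, Snrnp70, Abcb1a, Slco1a4 and Rgs5 are low in the 5xFAD libraries alone, with carriers near or above the wild-type range.

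Of 21 listed long non-coding RNAs that stay in the nucleus 13 rose and 0 fell, with a median of 0.49, where 5.34% of all tested genes rose. This list was drawn up with earlier results of these data known, so the count may restate how it was made. Meg3, an imprinted RNA that is made in neurons (chromosome 12, 109506879 to 109538165), was at 474.3, 442.6 and 536.6 CPM in 5xFAD and 1457, 2236 and 2167 CPM in 5xFAD/Cd5l tg/wt. That is a 4.03-fold rise (95% interval 3.25 to 5.01, log2 fold change 2.01 ± 0.16, adjusted p = 8.77e-05) to a level that overlapped the 1248 to 1758 CPM of wild-type. Malat1, the RNA of nuclear speckles (chromosome 19, 5845717 to 5852704), went from 102.7, 106.3 and 121.9 CPM to 291.3, 556.6 and 533.7 CPM, a rise of 2.06 ± 0.20 (adjusted p = 0.000138). Wild-type libraries held 334.1 to 420.6 CPM, so that carrier library 1 was below them and libraries 2 and 3 above.

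Xist, which coats the inactive X chromosome, rose from 478.7, 451.0 and 574.5 CPM to 909.4, 1016 and 997.2 CPM (0.96 ± 0.09, adjusted p = 0.000122), and Firre, which anchors that chromosome, from 35.7, 33.8 and 40.5 CPM to 67.0, 70.5 and 76.5 CPM (0.96 ± 0.09, 0.000157). Both sets of carriers lay among or near the wild-type libraries, which held 880.3 to 969.7 CPM of Xist and 63.6 to 74.1 CPM of Firre. No library of any genotype held less than 451.0 CPM of Xist, an RNA of cells with an inactive X chromosome. Others named after their values were seen were Miat (1.84 ± 0.23), Snhg11 (1.75 ± 0.17), Neat1, the scaffold of paraspeckles (0.94 ± 0.17), and Kcnq1ot1 (1.26 ± 0.19). Tug1 and Norad, also in the list, differed by -0.02 (0.87) and 0.09 (0.45). The list count lay between 9 and 13 in the 22 alternatives, with 9 without 5xFAD library 2. Antisense genes overlap several of these loci, Tsix at Xist among them, and whether counting used strand is not given in the sources used here.

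As a share of all counts, long non-coding RNAs took 1.146%, 1.155% and 1.195% in 5xFAD and 1.39%, 1.60% and 1.65% in 5xFAD/Cd5l tg/wt, with 1.35% to 1.53% in wild-type. Small nuclear and nucleolar RNAs went from 0.00187% ± 0.000126 to 0.0035% ± 0.00054 (SD, n = 3). Nuclear ribosomal RNA went down, from 0.237% ± 0.0452 to 0.0961% ± 0.0279, while wild-type libraries spanned 0.0584% to 0.256%. In 6 of the 7 classes compared, among them these 3, mitochondrial and nuclear protein-coding genes and TEC models, the 2 genotypes did not overlap, and the exact permutation test (two-sided) gave p = 0.1, the smallest that 3 against 3 allows, or 0.117 adjusted over the 7.

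Short gene models that count reads at miRNA hairpins were a separate group in which 6 of 27 rose (22.2%) and 0 fell, although the median of all 27 was -0.27. They were Mir186, which the naming rule chose, and 5 named after their values were seen: Mir1898, Mir421, Mir374b, MIR628 and Mir5125. Mir1898 and Mir374b met the filter on low counts only with the carriers counted. The filter thus favoured their rise, and the share that rose is no support for one. Mir1898 held 0.35 to 0.55 CPM in wild-type, 0.11 to 0.26 CPM in 5xFAD and 1.08 to 1.52 CPM in the carriers. Ordinary RNA libraries retain few mature miRNAs, so that a count over a hairpin is no measure of the mature product, and all 6 lie inside a tested gene on the same strand. The mature products that RefSeq (GRCm38.p6) lists for 5 of the 6 are printed to show which regulators sit in the rising models, 5′ to 3′, with the seed (bases 2 to 8), the part that pairs with targets, in capitals.
mmu-miR-186-5p, chromosome 3, plus strand: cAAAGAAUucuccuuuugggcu
mmu-miR-186-3p, chromosome 3, plus strand: gCCCUAAGgugaauuuuuuggg
mmu-miR-1898, chromosome 15, plus strand: aGGUCAAGguucacaggggauc
mmu-miR-374b-5p, chromosome X, minus strand: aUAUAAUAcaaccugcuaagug
mmu-miR-374b-3p, chromosome X, minus strand: gGUUGUAUuaucauuguccgag
mmu-miR-421-5p, chromosome X, minus strand: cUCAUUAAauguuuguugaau
mmu-miR-5125, chromosome 17, plus strand: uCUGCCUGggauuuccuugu

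No 2 of these 7 sequences share a seed. Mir186 (chromosome 3, 157249916 to 157249986, GRCm39) had 1.06, 0.673 and 0.268 CPM in 5xFAD and 2.66, 2.90 and 3.39 CPM in 5xFAD/Cd5l tg/wt, with 1.86 to 3.10 CPM in wild-type. The model rose by 2.15 ± 0.39 (adjusted p = 0.00721, and 0.0651 without the 3 regionally distinct libraries), and its host gene Zranb2, a splicing factor, rose by 0.38 ± 0.09. Mir374b and Mir421 rose by 2.11 ± 0.48 and 2.49 ± 0.67 (adjusted p = 0.0239 and 0.0476) inside Ftx, an X-linked long non-coding RNA that rose by 1.80 ± 0.20. Mir5125 rose by 1.63 ± 0.24 inside Srrm2, a scaffold of nuclear speckles that rose by 0.53 ± 0.08. For the other pair the host gene did not pass: Mir1898 rose by 2.92 ± 0.46 while Zfr differed by -0.08 ± 0.06, and MIR628 by 1.83 ± 0.42 while Ccpg1 differed by 0.21 ± 0.19. Each of the 6 models was below 7 CPM in all libraries.

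Genes that control splicing rose as well. CLK kinases phosphorylate SR proteins, the factors that choose splice sites, and several transcripts of both families keep introns and remain in the nucleus. In the list of CLK kinases, SR proteins and related regulators 17 of 30 rose, 0 fell and the median was 0.40. Over all tested genes 5.34% rose, and this list too was drawn up with earlier results known. Clk1 (chromosome 1, 58449348 to 58463225) was at 53.9, 53.5 and 54.0 CPM in 5xFAD, 105.7, 143.9 and 139.8 CPM in 5xFAD/Cd5l tg/wt and 109.7 to 119.3 CPM in wild-type, a 2.41-fold rise (95% interval 2.09 to 2.78, adjusted p = 8.77e-05). The 5xFAD libraries were nearly alike, and the carriers lay on both sides of wild-type.

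Clk4 rose by 1.21 ± 0.13 and Clk2 by 0.54 ± 0.13 (adjusted p = 0.000351 and 0.0281), while Clk3 differed by 0.37 and did not pass (0.058). Leng8, an mRNA export factor relative, rose from 63.9, 61.0 and 72.6 CPM to 139.1, 181.1 and 175.6 CPM (1.33 ± 0.11, adjusted p = 0.000102). Pnisr, a speckle protein gene, rose from 98.01, 92.9 and 102.7 CPM to 179.8, 239.5 and 236.6 CPM (1.16 ± 0.11, 0.000134). Their wild-type means were 134.4 and 177.9 CPM. In the SR family Srsf5 (0.88), Srsf11 (0.70) and Srsf2 (0.27) rose, and Srsf1 (0.18), Srsf3 (-0.07), Srsf4 (0.04), Srsf6 (0.28), Srsf7 (0.10) and Srsf10 (-0.01) did not pass. The rising count lay between 12 without the 3 regionally distinct libraries and 21 without 5xFAD/Cd5l tg/wt library 1, and 0 members fell in any of the 22 alternatives.

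In the core spliceosome 4 of 31 rose, 0 fell and the median was 0.03. Rnpc3, a protein of the minor spliceosome (chromosome 3, 113398716 to 113423798), rose from 11.2, 11.9 and 11.3 CPM to 25.3, 29.3 and 31.4 CPM (1.32 ± 0.11, adjusted p = 8.77e-05), and Snrnp70, the U1 protein that marks 5′ splice sites, from 135.3, 139.0 and 135.5 CPM to 210.5, 244.6 and 252.6 CPM (0.79 ± 0.07, 0.000134). Wild-type libraries held 23.3 to 26.9 CPM of Rnpc3 and 214.4 to 224.4 CPM of Snrnp70. Sf3b1, which helps to recognise the branch point, rose by 0.53 ± 0.08 (0.00239). Prpf40b, the other one, rose by 0.50 ± 0.10 (0.00971) and lost its call without 5xFAD library 1 (0.0631) or 2 (0.0634), without carrier library 3 (0.055) and without the 3 regionally distinct libraries (0.0719).

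Other rising genes with the smallest p came from varied pathways. Ints6l, related to a subunit of the Integrator complex that ends short transcripts, rose from 31.3, 30.9 and 32.9 CPM to 63.1, 81.3 and 89.7 CPM (1.30 ± 0.11, adjusted p = 0.000102). Atp11b, a phospholipid flippase gene, rose by 1.06 ± 0.09 and Wsb1, a ubiquitin ligase adaptor, by 1.05 ± 0.09 (both 0.000102). Rreb1, a zinc finger transcription factor (1.41 ± 0.13), Ttc14 (1.53 ± 0.14), Ankrd16 (1.36 ± 0.12), Med12, a Mediator kinase-module gene (0.96 ± 0.10), and Odf2, a centriole gene (0.90 ± 0.09), rose as well. All 8 kept the call in all 22 alternatives. Wsb1, Med12 and Odf2 were higher in the carriers than in all 6 other libraries, as were 3.8% of tested genes. For Wsb1 the carriers held 107.5 to 121.8 CPM and wild-type 88.4 to 105.0 CPM.

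The kinds of genes that rose were uneven. Among TEC models, provisional transcripts that still await experimental support, 68 of 315 rose (21.6%) against 734 of 14558 protein-coding genes (5.04%), 116 of 1996 long non-coding RNA genes (5.81%) and 4 of 486 processed pseudogenes (0.823%). By gene length as the deposited table gives it, 2.18% of the 4395 shortest tested genes rose (2377 bases or less), 3.92% and 5.24% in the next 2 classes of like size, and 441 of the 4394 longest (6385 bases or more). Within protein-coding genes these shares were 0.971%, 2.96%, 4.65% and 9.62%. Falling genes ran the other way in protein-coding genes, with 1.74% in the shortest class and 0.706% in the longest. With offsets for the trend on gene length in each library, 770 genes rose and 215 fell. By expression level the share that rose stayed between 4.03% and 7.06%, and by chromosome, leaving out the mitochondrial genome with 0 of 27, between 3.87% on chromosome 11 and 6.85% on chromosome 5.

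**Figure D5:**
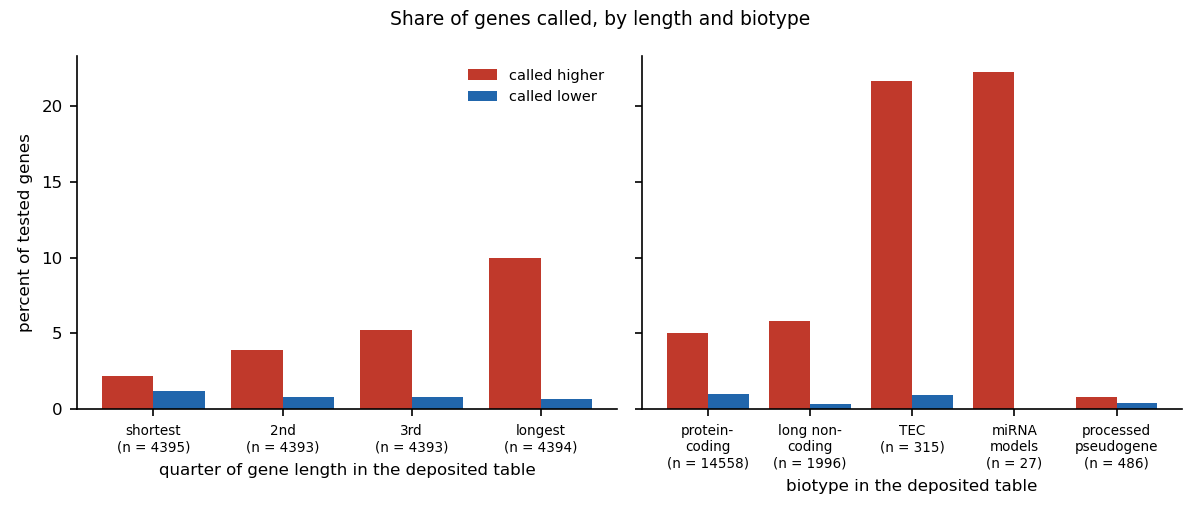
Percent of tested genes that rose (red) or fell (blue) in 5xFAD/Cd5l tg/wt against 5xFAD, by 4 classes of gene length (left) and by biotype in the deposited table (right). The number of tested genes is under each pair of bars. The rising share goes from 2.18% in the shortest class to 441 of 4394 in the longest, and is 21.6% in TEC models and 22.2% in miRNA gene models. Some miRNA models met the filter on low counts only with the carriers counted.

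Genes of brain vessels were higher with Cd5l. In the endothelial list 12 of 22 rose, 0 fell, and 21 were positive with a median of 0.49, where 5.34% of all tested genes rose. Abcb1a, the drug efflux pump of the blood-brain barrier (chromosome 5, 8710077 to 8798575), was at 18.3, 20.8 and 19.3 CPM in 5xFAD and 36.7, 36.2 and 36.1 CPM in 5xFAD/Cd5l tg/wt, a 1.86-fold rise (95% interval 1.67 to 2.08, adjusted p = 0.000122). Wild-type libraries held 34.0 to 35.9 CPM, close below the carriers. Reads of Abcb1a may also match Abcb1b, its near copy.

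Slco1a4, an organic anion transporter of the barrier, went from 19.5, 18.2 and 28.6 CPM to 48.7, 55.3 and 51.5 CPM (1.23 ± 0.15, adjusted p = 0.000802), and wild-type libraries held 41.1 to 52.7 CPM. Flt1, a receptor for vascular growth factors, rose from 38.0, 46.8 and 46.8 CPM to 63.7, 72.7 and 80.7 CPM (0.72 ± 0.10, 0.00183). Its wild-type mean was 64.8 CPM. Tie1, an endothelial angiopoietin co-receptor, rose by 0.87 ± 0.16 (0.00931), and the tight junction gene Cldn5, named after its value was seen, by 0.70 ± 0.17 (0.0311). Kdr, Tek, Eng, Pecam1, Tfrc, Abcg2 and Itm2a, likewise named after their values were seen, rose by 0.45 to 0.76. Slc2a1, the glucose transporter of the barrier, differed by 0.06 (0.83), and Mfsd2a, its lipid transporter, by -0.50 (0.2).

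In mural cells, the pericytes and smooth muscle around vessels, 4 of 15 rose and 0 fell (median 0.43). Rgs5, a pericyte gene, rose from 57.1, 58.0 and 59.4 CPM to 93.7, 94.1 and 87.6 CPM (0.66 ± 0.07, adjusted p = 0.000378), with 77.7 to 87.8 CPM in wild-type. Pdgfb, the endogenous mouse gene whose human promoter drives the transgene, differed by 0.31 (adjusted p = 0.14). Summed, the endothelial genes were at 599.9 to 636.8 CPM in 5xFAD, 820.5 to 852.0 CPM with Cd5l and 755.7 to 836.8 CPM in wild-type, and the mural genes at 217.6 to 234.5, 299.8 to 313.7 and 258.1 to 290.6 CPM. Fibroblast and meningeal genes had 0 of 14 passing (1 under an unadjusted 0.05 in edgeR's test) and a median of -0.03. They summed to 779.2 to 861.6 CPM in 5xFAD and 819.7, 447.3 and 623.3 CPM in carriers 1, 2 and 3, and 3 of them fell without carrier library 1.

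The vessel counts rested on single libraries, although the genes with the smallest p did not. Of the endothelial genes 3 rose without 5xFAD library 1, 4 without 5xFAD library 2, 5 and 6 without 5xFAD/Cd5l tg/wt libraries 2 and 3, and 5 without the 3 regionally distinct libraries. Of the mural genes 1 rose without library 1 or 2 of 5xFAD or library 2 of the carriers, and 2 without 5xFAD library 3. Tie1 was at an adjusted p of 0.0534 and 0.0516 without 5xFAD libraries 1 and 2. Abcb1a, Slco1a4, Flt1 and Rgs5 passed in all 22 alternatives.

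A pair of collagen genes was among the genes with the smallest p or largest rise, and no list of collagens was counted. Col11a1, a fibrillar collagen (chromosome 3, 113824189 to 114014367), went from 3.97, 2.47 and 3.28 CPM to 10.99, 13.35 and 11.85 CPM (1.90 ± 0.20, adjusted p = 0.000323), just above the 7.68 to 10.8 CPM of wild-type. Col7a1, the anchoring fibril collagen, went from 0.265, 0.449 and 0.535 CPM to 3.06, 1.75 and 2.71 CPM (2.57 ± 0.35, 0.00131), around the 2.62 to 2.80 CPM of wild-type. Both passed in all 22 alternatives. Other collagens, Col1a1, Col1a2 and Col3a1, did not pass (0.00, -0.32 and -0.23). Prox2os, a non-coding RNA opposite the Prox2 gene, rose by 2.17 ± 0.28 (0.000986), and its carriers (3.33 to 4.97 CPM) were above the 6 other libraries (0.736 to 3.16 CPM).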

How the data were processed

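The authors deposited 1 table of read counts per gene, not normalized, for 56748 genes in 9 libraries, with coordinates, biotypes and gene lengths. Per the submitters' processing notes the build is GRCm39 (mm39). Information on the aligner, the counter and strand is not given in the sources used here.

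Groups followed the genotype in the labels, with 3 libraries each. The filter on low counts was filterByExpr of edgeR with a minimum count of 10 and a minimum total of 15. It left out up to 0.161% of the counts in a library. Libraries were scaled by TMM (0.987 to 1.018). All 9 libraries were fitted together with edgeR 4.0.16 (quasi-likelihood test, limma 3.58.1, R 4.3.3), 1 coefficient per genotype, with Benjamini-Hochberg adjustment over 17575 genes. An SE is the size of the log2 fold change over the square root of F. CPM used the scaled library sizes. No unused sample columns were present. Each p-value sets a difference between genotypes against a spread estimated from all 9 libraries, wild-type included, with information shared across genes. The limit used for Cd5l covers counting error only, and fold intervals come from the SE of the fit. Totals of 14575416 to 17865150 counts set the precision.

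The 47 gene lists, the rule for named genes and the comparison itself were chosen with earlier results of these data known. The rule took Cd5l, App and Thy1, the genes with the smallest p or largest change among passing genes of at least 1 CPM whose libraries did not overlap, those outside the range of all 6 other libraries, and the first 4 of each list by p. Members named beyond the first 4 of a list, genes around Rgs6 and host genes of miRNA models were chosen after their values were seen. No set test was run. Alternatives were other scalings, filters, DESeq2 1.42.0, limma-voom, other library subsets, a replicate block and offsets for gene length. Offsets for GC content were added after seeing the data, with a value for 17293 tested genes (98.4%) from an older mouse annotation. The test was checked on simulated counts. Figures were drawn with matplotlib 3.10.9.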

Additional observations from a re-analysis of the deposited data

How the results depend on the processing

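Of the 98 passing genes chosen by rule, 0 changed sign in the 22 alternatives and 40 always passed. The rule favoured passing genes whose libraries did not overlap, and leaving out 1 library can hardly reverse those. The absence of sign changes was thus largely fixed by the choice of genes and does not test direction. The count of 1095 passing genes (939 rising, 156 falling, 85.8% rising) was 339 (325 and 14) at an adjusted p under 0.01, 2063 (701 falling, 66% rising) without a filter, and 630 (391 and 239, 62.1% rising) without the 3 regionally distinct libraries, of which 286 rising and 45 falling genes were shared. Falling genes numbered 365 with DESeq2 (74.6% rising) and 289 with GC offsets. Leaving out 1 library gave 278 (5xFAD library 2) to 2069 (5xFAD/Cd5l tg/wt library 1) passing, 265 to 1376 rising and 13 to 693 falling genes. With the replicate number as a block, 836 genes passed, 737 rising and 99 falling. The numbers do not pair these mice: after removal of genotype means, same-numbered libraries of the 2 genotypes correlated at -0.0668, -0.0594 and -0.0636. Values that changed sign were all of genes that had not passed. They were Hba-a1 0.32 with limma-voom, App -0.068 with gene-length offsets, Calb2 0.076, Trh 0.20, Aldh1a2 0.12, Cd163 0.33 and Cd4 -0.99 (adjusted p = 0.0196) without the 3 regionally distinct libraries. With 1 library left out, Hba-a1 ran from -1.615 to 1.683, Hbb-bs from -3.331 to 1.179 (both highest without 5xFAD library 3) and Cd4 from -0.16 to 0.768. The causes were not tested. Genes near 1 CPM, such as Chrna3 in the carriers, rest on few counts, and smaller changes there were not detectable at this depth.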

Other observations

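Some lists outside the pathways above held single genes with firm changes. Kcnt1, a sodium-activated potassium channel gene, rose from 91.3, 92.1 and 92.2 CPM in 5xFAD to 130.2, 147.5 and 143.5 CPM in 5xFAD/Cd5l tg/wt (0.61 ± 0.07, edgeR adjusted p = 0.000493), with 138.5 to 151.0 CPM in wild-type. It was 1 of 2 rising genes among 27 potassium channel subunits, where 5.34% of all tested genes rose. That count was 1 without 5xFAD library 1 or 2 or carrier library 2, and 7 without carrier library 1. Per3, a component of the circadian clock, rose from 27.7, 29.6 and 23.8 CPM to 54.1, 46.8 and 43.1 CPM (0.83 ± 0.13, 0.00275), and 2 of 16 clock genes rose (1 without any single 5xFAD library, wild-type library 1 or 2 or carrier library 1 or 3, and 4 without the 3 regionally distinct libraries). The wild-type mean of Per3 was 46.4 CPM. The other rising clock gene was Ciart (0.79, 0.0388), which lost its call in 9 of the 22 alternatives. Dbp differed by 0.52 and did not pass (0.0536), although it passed in 8 alternatives. Per1, Per2 and Clock differed by 0.15 (0.55), 0.01 (0.98) and -0.04 (0.88). Cpeb1, which binds the tails of dendritic mRNAs, rose from 46.0, 47.6 and 44.2 CPM to 71.4, 75.9 and 65.2 CPM (0.62 ± 0.08, 0.00086), above all 6 other libraries. Kcnt1, Per3 and Cpeb1 passed in all 22 alternatives, and the time of day at which tissue was taken is not given in the sources used here.

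Several housekeeping groups had small negative medians, while the 13 mitochondrial genome genes had 12 positive and a median of 0.16, with 0 passing and 2 under an unadjusted 0.05 in edgeR's test. For cytosolic ribosomal proteins 34 of 37 genes were negative (median -0.11) and 0 passed, with 7 under an unadjusted 0.05 in edgeR's test. Nuclear-encoded respiratory chain genes had 22 of 25 negative (median -0.15) and 2 falling members (Ndufb8 and Cox4i1), and heat shock genes 23 of 24 negative (median -0.29) and 2 falling members (Hspa8 and Hspe1). The naming rule chose these 4 as the members of their lists with the smallest p. The respiratory count was 0 without 5xFAD library 1 or 2 or 5xFAD/Cd5l tg/wt library 2 or 3, 1 without wild-type library 1 and 4 without 5xFAD/Cd5l tg/wt library 1. The heat shock count was 0 without 5xFAD library 1 or 2 or 5xFAD/Cd5l tg/wt library 2, 1 without wild-type library 1 and 8 without 5xFAD library 3. Myelin genes had 17 of 20 negative (median -0.18) and 0 passed, with 8 under an unadjusted 0.05, and 3 fell without carrier library 1. Immediate early genes summed to 1473 to 1951 CPM in 5xFAD and, in carriers 1, 2 and 3, to 982.0, 1996 and 1886 CPM, and 0 of 21 passed, with 5 under an unadjusted 0.05 in edgeR's test. Of these genes 7 fell without the 3 regionally distinct libraries, and 5 rose and 4 fell without a filter.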
